A study of Mus musculus with 8 samples.

Results

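In 8 libraries of mouse brown adipose tissue (BAT), 7 genes that activate, inactivate, import, bind or sense thyroid hormone were followed. They are the deiodinases Dio1, Dio2 and Dio3, the nuclear receptors Thra and Thrb, the membrane transporter Slc16a10 and the cytosolic hormone-binding protein Crym. They were chosen by symbol, and all 7 were found among the 49452 genes of the deposited table. The study asked which transcripts follow BAT function under cold exposure and under high-fat feeding. Tissue came from male C57BL/6 mice, with 2 libraries in each of 4 groups. The cold experiment compared 22 °C housing (replicates 4 and 7) with 24 h of cold at 4 °C (replicates 2 and 11), and the diet experiment compared a group labelled NCD (replicates 6 and 8) with a group on high-fat diet, HFD (replicates 2 and 6). Mice were 10 to 12 weeks old in the former, and 32 weeks old in the latter after 28 weeks on their diet. The labels call the NCD food normal chow, whereas the study's methods describe a control diet. The mice at 4 °C were fasted at the end of the exposure, and the methods leave unclear whether this also applied to the 22 °C group, so that cold and fasting cannot be told apart. All groups are unmodified mice of 1 strain, and each library is whole tissue of unsorted cells.

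The thyroid gland mainly releases the prohormone T4. The enzyme encoded by Dio2 converts T4 into the active hormone T3 inside the cell, the Dio1 enzyme does so less efficiently, and the Dio3 enzyme inactivates both hormones. In BAT, sympathetic stimulation raises Dio2, and local T3 acts through the receptors encoded by Thra and Thrb on genes for heat production and lipid metabolism, among them Ucp1. All 3 deiodinases are selenoproteins: a UGA codon in their active centre, which elsewhere ends translation, is read as selenocysteine.

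To show what sets these enzymes apart in sequence, the coding bases around the selenocysteine codons of GENCODE (mouse release 21, GRCm38) are printed below, 5′ to 3′ on the coding strand, with the TGA in capitals. The codons lie at chr4:107297700-107297702 (minus strand) for Dio1, chr12:90729823-90729825 (minus strand) for Dio2 and chr12:110279739-110279741 (plus strand) for Dio3, as codons 126, 130 and 170 of 257, 266 and 304.
Dio1: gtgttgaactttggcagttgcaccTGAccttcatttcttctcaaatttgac
Dio2: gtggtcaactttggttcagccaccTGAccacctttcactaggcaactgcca
Dio3: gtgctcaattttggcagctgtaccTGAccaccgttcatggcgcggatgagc
Of the 51 bases in each window, 28 were identical between Dio1 and Dio2, 30 between Dio1 and Dio3 and 31 between Dio2 and Dio3. Dio2 has another such codon near its end, at chr12:90729424-90729426, codon 263 of 266.
Dio2, last codons: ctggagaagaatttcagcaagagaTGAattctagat

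The promoter of Dio2 is shown because Dio2 was the member with the large difference in the cold. It is the RefSeq window from 250 bases before to 50 bases after the start (GRCm38.p6, chr12:90738989-90739288, minus strand), printed 5′ to 3′ with the cAMP response element sequence TGACGTCA in capitals. This start lies upstream of the end of the Ensembl gene given below, so the window is outside that gene model.
Dio2 promoter: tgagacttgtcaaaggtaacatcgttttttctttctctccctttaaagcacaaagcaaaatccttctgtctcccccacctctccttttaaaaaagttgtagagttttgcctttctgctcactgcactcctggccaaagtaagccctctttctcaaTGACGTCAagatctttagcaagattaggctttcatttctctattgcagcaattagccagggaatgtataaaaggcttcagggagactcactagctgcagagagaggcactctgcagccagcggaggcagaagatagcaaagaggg
The match begins 95 bases before the start. Searched on both strands, TGACGTCA was present in 588 of 32851 promoters of this length (1.79%), and among the 6 promoter windows found for 5 members only Dio2 held it. The shorter TGACG, which is contained in TGACGTCA, was present in 20.8% of all windows and in those of Dio2 and 1 of 2 Thrb windows. AGGTCA, the half-site bound by thyroid hormone receptors and other nuclear receptors, was present in 16.3% of all windows and, among the members, in the same Thrb window. These matches describe letters in a window and are not measurements of binding.

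Levels are given as FPKM (sequenced fragments scaled by transcript length and by library size). Averaged over the 8 libraries, Dio2 was the most abundant member with 55.6 FPKM, followed by Thra with 21.3, Slc16a10 with 5.90 and Thrb with 5.07. Crym (0.0974 FPKM), Dio3 (0.0834) and Dio1 (0.0375) were each below 0.1 FPKM. Of 36094 autosomal genes with a value above 0 in any library, 98.0% had a lower mean than Dio2 and 95.2% a lower mean than Thra. For Crym, Dio3 and Dio1 the shares with a lower mean were 51.4%, 49.8% and 42.1%. By the steps between low values, 1 fragment on 2000 bases was worth 0.00437 to 0.00605 FPKM. Dio2 thus rested on about 2606 to 114500 fragments a library, and Crym on about 4.84 to 53.45.

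**Figure D1:**
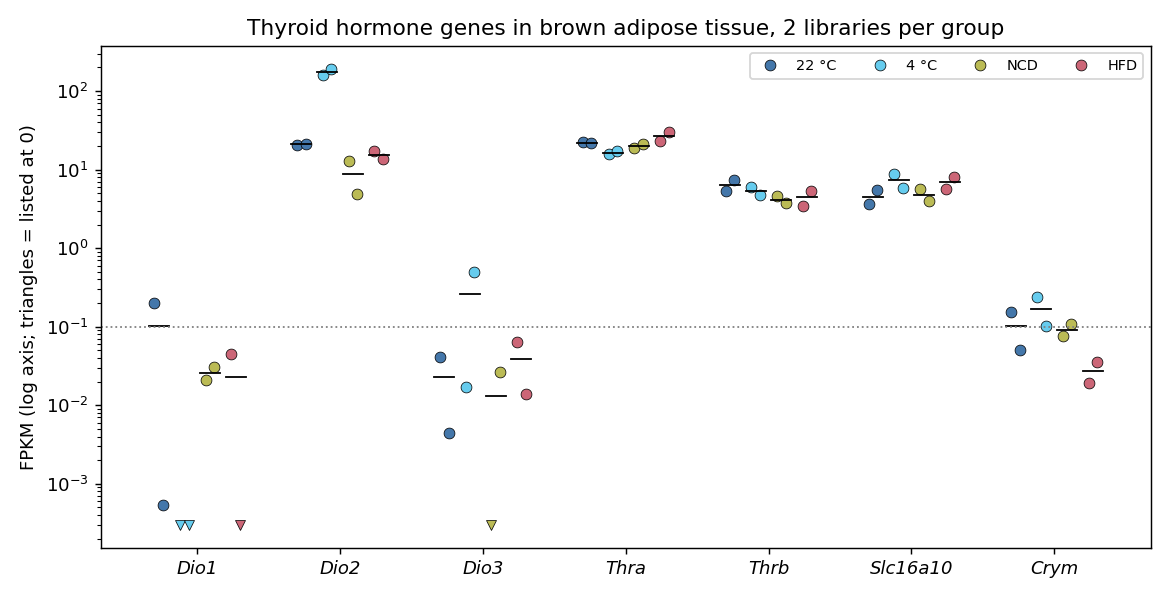
FPKM of each gene (log axis) in the 8 libraries, coloured by group; bars are group means (n = 2), triangles mark values listed at 0, and the dotted line is the 0.1 FPKM of the filter. Dio2 at 4 °C stands at 162 and 193 FPKM, above every other value, while Dio1, Dio3 and Crym stay at or below 0.5003.

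Tissue identity and library differences bear on every comparison. All 10 brown adipocyte markers were above 1 FPKM in every library, with summed levels of 6337 and 6606 FPKM at 22 °C, 14470 and 16620 at 4 °C, 7605 and 13480 in NCD and 8290 and 11520 in HFD. The sums, of which Fabp4 was the largest part, did not overlap in the cold comparison. Of the 10 markers, 8 were higher in both cold libraries (37.9% of all genes tested were), and 2 of these, Ppargc1a and Elovl3, were called. The other 2 were lower in both (20.6% of all genes tested were). Prdm16 had 4.54 and 8.03 FPKM at 22 °C and 3.12 and 3.72 at 4 °C, and Adipoq 717 and 491, and 395 and 302. Skeletal muscle markers (13 genes) summed to 158 and 652 FPKM at 22 °C, 2232 and 5049 at 4 °C, 682 and 1748 in NCD and 43.6 and 230 in HFD, and none was listed at 0. Their sums did not overlap between groups in either comparison, although no muscle gene was called. Macrophage markers (6 genes) summed to 38.4 and 108 FPKM in NCD and 189 and 242 in HFD. Schwann cell markers (4 genes) summed to 8.75 and 8.80 FPKM at 22 °C and 27.4 and 33.2 at 4 °C. The satellite gene Gm10800 was above 100 FPKM in 1 library of each group, and differences within these satellite-high libraries and within the satellite-low ones are given where they differed from the pooled value by more than the spread between replicates. All genes on chromosome X were listed at 0 in both 22 °C libraries and in NCD replicate 6, as were all Y genes and all but at most 1 of 37 mitochondrial genes, and these chromosomes were not tested. The other 5 libraries listed 15 mitochondrial genes above 0. Both 22 °C libraries and neither 4 °C library were affected, so that a difference in FPKM scale and the cold cannot be told apart. With values rescaled without mitochondrial genes, rRNA genes and Ucp1, the cold log2 fold change of Dio2 was 2.58 in place of 3.01. The labels do not say that the libraries of a group came from separate animals, so p-values measure only the spread between these samples, which may be technical.

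The first comparison asked how the genes differed after 24 h at 4 °C. Of the 7 members, 5 passed the filter of at least 0.1 FPKM in 2 of the 4 libraries, and Dio1 and Dio3 did not. A gene was called at a Benjamini-Hochberg adjusted p under 0.05 and a 2-fold difference on the log2(FPKM + 1) scale (limma, over 17470 genes). Only Dio2 was called, whereas 1.44% of all genes tested were called and 1.22% were called higher. The groups did not overlap for Dio2 and Slc16a10 (higher in both cold libraries, as were 37.9% of all genes tested) and for Thra (lower in both, as were 20.6%). The median log2 fold change was 0.08 over the 5 members and 0.07 over all genes tested.

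Dio2 (ENSMUSG00000007682, chr12:90724554-90738438, minus strand, 2 exons) had 20.6 and 21.5 FPKM at 22 °C and 161.9 and 192.6 FPKM at 4 °C. Both cold libraries lay far above both others, and the cold mean was 8.43 times the mean at 22 °C. The log2 fold change was 3.01 (SE 0.22, 95% interval 2.45 to 3.57, adjusted p 0.0196, limma). It was 3.16 between the satellite-high libraries and 2.86 between the satellite-low ones. The difference was called in 14 of 17 alternative analyses. Without 4 °C replicate 2 it was 3.14 and not called (adjusted p 0.0836). With the muscle marker score as a covariate it was 3.34 and not called either (adjusted p 0.167), in a fit that called no gene at all although 2487 had an unadjusted p under 0.05. Muscle markers were higher in both cold libraries too, and their part in the difference was not tested.

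The other 2 deiodinases were below 0.1 FPKM in all but 1 library each. Dio1 (chr4:107291465-107307169) had 0.203 and 0.000531 FPKM at 22 °C and was listed at 0 in both cold libraries. The first value corresponds to about 38.6 fragments and the second to less than 1, so the 22 °C mean rests on replicate 4. Dio3 (chr12:110279068-110281097, 1 exon) had 0.0409 and 0.00441 FPKM at 22 °C and 0.0172 and 0.5003 FPKM at 4 °C. The groups overlapped, and the highest value, about 98.5 fragments in 4 °C replicate 11, was not shared by 4 °C replicate 2. Neither gene was tested.

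Among the receptors, Thra (chr11:98740638-98769006) had 22.3 and 21.7 FPKM at 22 °C and 15.7 and 17.1 FPKM at 4 °C. Both cold libraries were lower, with a log2 fold change of −0.40 (95% interval −0.87 to 0.07, SE 0.19), but the difference was not called (adjusted p 0.261, limma). It kept its direction in all 17 alternatives, from −0.82 to −0.23, and was called in none. Thrb (chr14:17660960-18038088) had 5.36 and 7.33 FPKM at 22 °C and 5.94 and 4.74 FPKM at 4 °C. The groups overlapped and the log2 fold change of −0.21 (SE 0.22, adjusted p 0.615, limma) was smaller than its error. Thra thus exceeded Thrb in every library, by 4.16 and 2.96 times at 22 °C and 2.65 and 3.62 times at 4 °C. The ratio of Dio2 to Thra was 0.924 and 0.989 at 22 °C and 10.3 and 11.2 at 4 °C.

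Slc16a10 (chr10:40033532-40142258), which encodes a transporter of aromatic amino acids that also carries T3 and T4, had 3.65 and 5.45 FPKM at 22 °C and 8.79 and 5.88 FPKM at 4 °C. Both cold libraries were higher, 4 °C replicate 11 only slightly above 22 °C replicate 7, and the log2 fold change of 0.58 (SE 0.27, 95% interval −0.10 to 1.27) was not called (adjusted p 0.257, limma). It was 0.33 without 4 °C replicate 2, 0.35 without 22 °C replicate 4 and 0.21 to 0.22 after the 2 rescalings to other sums. Larger values were 0.82 without 22 °C replicate 7, 0.84 without 4 °C replicate 11 and 1.10 with the muscle marker score as a covariate. Crym (chr7:120186380-120202111), whose product binds T3 in the cytosol, had 0.154 and 0.0505 FPKM at 22 °C and 0.236 and 0.101 FPKM at 4 °C. The groups overlapped, and the log2 fold change was 0.08 (SE 0.08, adjusted p 0.567, limma), with −0.07 between the satellite-high libraries and 0.23 between the satellite-low ones.

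The second comparison asked how the same genes differed between HFD and NCD. Of the members, 4 passed the filter, and Dio1, Dio3 and Crym did not. None was called by limma (none had an unadjusted p under 0.05), where 0.0684% of 17535 genes tested were called. Dio2 and Thra were higher in both HFD libraries, as were 39.9% of all genes tested. The median log2 fold change was 0.42 over the 4 members and 0.18 over all genes tested. Over mRNA genes that averaged 1 FPKM or more, the median was 0.29 on the deposited scale and −0.07 once each library was centred on its median, and in the cold comparison it was 0.21 and −0.06. The sign of differences of that size depends on the scaling.

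Dio2 had 12.7 and 4.87 FPKM in NCD and 17.4 and 13.5 FPKM in HFD. Both HFD libraries were higher, but HFD replicate 6 was only just above NCD replicate 6, and the log2 fold change of 0.86 (SE 0.47, 95% interval −0.24 to 1.97) was not called (adjusted p 0.458, limma). The difference was 1.65 between the satellite-high libraries and 0.08 between the satellite-low ones. Without NCD replicate 6, which leaves 3 libraries whose labels begin with the same string, it was 1.48 (adjusted p 0.0588, limma). Without NCD replicate 8 it was 0.25.

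Thra had 18.6 and 21.3 FPKM in NCD and 23.2 and 30.3 FPKM in HFD. The groups did not overlap, but the log2 fold change of 0.39 (SE 0.39, adjusted p 0.695, limma) was not called. It was 0.12 between the satellite-high libraries and 0.67 between the satellite-low ones, and 0.04 after median centring. Thrb had 4.61 and 3.72 FPKM in NCD and 3.49 and 5.36 FPKM in HFD, so that both NCD libraries lay between the HFD libraries (log2 fold change 0.06, adjusted p 0.954, limma), and the direction turned under 7 alternatives. The ratio of Thra to Thrb was 4.05 and 5.73 in NCD and 6.64 and 5.64 in HFD, which overlapped.

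Slc16a10 had 5.65 and 3.97 FPKM in NCD and 5.65 and 8.13 FPKM in HFD, where NCD replicate 6 and HFD replicate 2 were nearly equal (log2 fold change 0.44, SE 0.34, adjusted p 0.609, limma). Crym had 0.0756 and 0.107 FPKM in NCD and 0.0190 and 0.0358 FPKM in HFD. Both HFD libraries were lower, with about 4.84 and 8.22 fragments against 22.65 and 25.56 in NCD, and the gene was not tested. Dio1 had 0.0207 and 0.0306 FPKM in NCD and 0.0451 FPKM in 1 HFD library, and was listed at 0 in the other. Dio3 was listed at 0 in NCD replicate 6, had 0.0266 FPKM in NCD replicate 8 and had 0.0638 and 0.0138 FPKM in HFD. Both genes overlapped between the diets.

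Ordered by group mean, Dio2 was highest at 4 °C (177.2 FPKM), then at 22 °C (21.03 ± 0.595, SD), in HFD (15.4 ± 2.70) and in NCD (8.80 ± 5.56), and no neighbours in that order overlapped (n = 2 each). Thra followed another order, from HFD (26.7 ± 5.01) over 22 °C (22.0 ± 0.437) and NCD (19.96 ± 1.88) to 4 °C (16.4 ± 0.997), again without overlap between neighbours. Neighbouring groups overlapped at every step for Thrb, which ranged from 6.35 ± 1.39 at 22 °C to 4.16 ± 0.629 in NCD, and for Slc16a10, which ranged from 7.34 ± 2.06 at 4 °C to 4.55 ± 1.27 at 22 °C. Mice of the cold and the diet experiment differed in age, and these orders carry no test. Both 22 °C libraries and NCD replicate 6 lacked X, Y and nearly all mitochondrial genes, so a difference in FPKM scale may also enter these orders.

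Across the 8 libraries, Thra was lower where the muscle marker score (the mean log2(FPKM + 1) of the 13 muscle genes) was higher, with a Pearson r of −0.889 and a Spearman rho of −0.905. Crym was higher there (r 0.787, rho 0.762), whereas r was 0.505 for Dio2, −0.164 for Thrb and −0.111 for Slc16a10. The points share 4 treatments, and fewer cells of a type cannot be told apart from less RNA per cell in whole tissue. Marker sums for macrophages, white adipocytes (9.54 and 17.1 FPKM in NCD, 76.6 and 102.5 in HFD, there mostly Lep), lymphoid cells (2.14 and 4.39, 6.36 and 10.6) and endothelial cells (47.7 and 54.3, 75.6 and 80.5) were higher in both HFD libraries along with Thra. The white adipocyte sum was also higher in both cold libraries (113.7 and 233.2 FPKM, against 54.9 and 96.0 at 22 °C), where it was mostly Retn, while Lep of the same list was lower in both. The part of any of these cell types in the values was not tested.

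**Figure D2:**
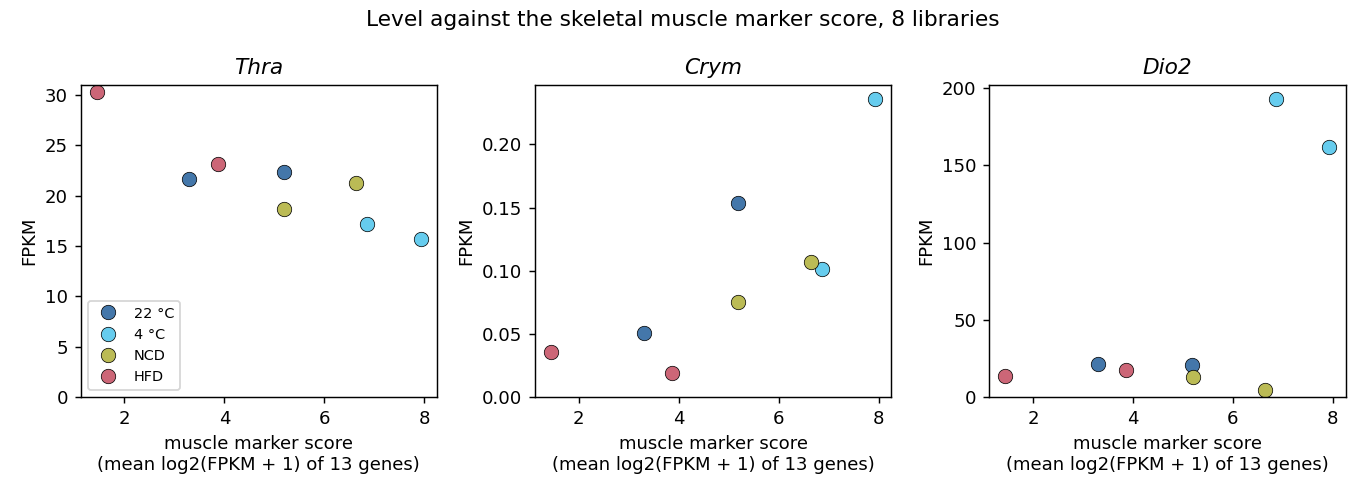
FPKM of Thra, Crym and Dio2 (linear axes) against the muscle marker score, 1 point per library. Thra is 30.3 FPKM at the lowest score and 15.7 at the highest, Crym has its highest value of 0.236 at the highest score, and Dio2 is above 160 in the 4 °C libraries and below 22 elsewhere.

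The genes whose pattern over the 8 libraries was most like a member's were sought among 9833 autosomal genes that averaged 1 FPKM or more, by Pearson r of log2(FPKM + 1). For Dio2 they were Agpat1 (r 0.985), a lipid acyltransferase, Gpld1 (0.982), a phospholipase that cleaves membrane anchors, and Vegfa (0.977), an angiogenic growth factor. Vegfa had 85.2 and 83.9 FPKM at 22 °C, 137 and 149 at 4 °C, 65.6 and 49.0 in NCD and 63.2 and 72.9 in HFD. Its group means had the same order as those of Dio2, over a narrower range and with overlap between the diets, and it had a cold log2 fold change of 0.75 that was not called (adjusted p 0.135, limma). For Thra they were Telo2 (0.951), Zeb2 (0.932), a transcription factor, and the splicing factor Srsf7 (0.930), for Thrb the ubiquitin ligase Znrf1 (0.958), the cytochrome P450 gene Cyp4f13 (0.941) and Abtb1 (0.929). For Slc16a10 they were the ubiquitin-conjugating enzyme gene Ube2d2a (0.990), Akap10 (0.984), which anchors protein kinase A, and Vps54 (0.980), which takes part in vesicle transport. An r of at least 0.9 was reached by 159 genes for Dio2, 411 for Slc16a10, 16 for Thra and 15 for Thrb. With 8 libraries of 4 treatments these values are descriptions.

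Other genes of the pathway came from lists of transporters, receptor partners, known targets, regulators of Dio2 protein turnover and selenoprotein synthesis factors. Of 36 genes listed, 35 were found, and Slc7a5 was not matched. In the cold comparison 33 were tested, 2 were called higher and none lower, where 1.22% of all genes tested were called higher and 0.223% lower. The median log2 fold change was 0.19, against 0.07 over all genes tested. Under HFD 32 were tested and none was called (0.0684% of all genes tested were), and the median was 0.20 against 0.18.

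Both genes called in the cold encode parts of an amino acid transporter that also carries thyroid hormone. Slc7a8 (chr14:54722216-54781886) encodes the light chain LAT2, and had 0.677 and 0.288 FPKM at 22 °C and 3.81 and 6.54 FPKM at 4 °C. Slc3a2 (chr19:8706882-8723369), which encodes the heavy chain shared by several such transporters, had 18.6 and 19.98 FPKM at 22 °C and 96.3 and 63.8 FPKM at 4 °C. The groups overlapped for neither gene, and the cold means were 10.7 and 4.15 times those at 22 °C. The log2 fold changes were 2.03 (SE 0.28) for Slc7a8 and 1.97 (SE 0.27) for Slc3a2, each with an adjusted p of 0.0442 (limma).

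Slc7a8 was called in 12 and Slc3a2 in 14 of 17 alternatives. Their adjusted p ranged up to 0.170 and 0.193, and both calls were lost without 4 °C replicate 2 and with the muscle marker score as a covariate, fits that called 1 and 0 of all genes. Without that replicate the log2 fold changes were 2.36 and 1.67 (adjusted p 0.109 and 0.119, limma), and with the covariate 2.01 and 2.36 (0.165 and 0.193). Under HFD, Slc7a8 had 0.821 and 0.850 FPKM against 0.288 and 0.360 in NCD. It was higher in both libraries but not called (log2 fold change 0.47, adjusted p 0.184, limma). Slc3a2 overlapped between the diets, with 25.1 and 15.7 FPKM in NCD and 19.3 and 26.8 in HFD.

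Of the remaining transporters, Slco1a4 had 0.0249 and 0.0186 FPKM at 22 °C and 0.130 and 0.179 at 4 °C, and was not called. Only its 4 °C libraries reached the 0.1 FPKM of the filter. It was thus tested only because it was higher there, and its direction and p-value decide nothing.

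The 11 receptor partners gave no call in either comparison. Rxrb, a retinoid X receptor that pairs with the thyroid hormone receptors, had 11.3 and 12.1 FPKM at 22 °C and 21.5 and 18.1 at 4 °C. Its paralogue Rxrg and the corepressor Ncor1 overlapped between 22 °C and 4 °C, with ranges of 8.57 to 14.8 and 28.8 to 38.3 FPKM. The corepressor deacetylase Hdac3 had 13.2 and 13.01 FPKM at 22 °C and 11.9 and 9.90 at 4 °C, lower in both. Under HFD all 11 had a fitted log2 fold change above 0, as had 79.3% of all genes tested.

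Genes known to respond to thyroid hormone did not share a direction, and none of the 9 was called. In the cold 7 of 9 had a fitted log2 fold change above 0, against 61.0% of all genes tested. Both cold libraries were higher for 5 (37.9% of all genes) and lower for 1 (20.6%), and the median was 0.99 against 0.07 over all genes tested. The other 4 genes higher in both were Klf9 (1.27), Gpd2 (1.15), Me1 (1.11) and Cpt1a (0.99), with adjusted p from 0.0594 to 0.248 (limma), named after their values were seen. Without 4 °C replicate 2, Me1 and Cpt1a were 0.52 and 0.44, and without 4 °C replicate 11 they were 1.70 and 1.54. With library type (satellite-high or satellite-low) as a covariate, Klf9 and Me1 were called (adjusted p 0.0360 and 0.0443, limma). Gpd2 was called as well when that fit took all 8 libraries (adjusted p 0.0431, limma). Of the 17 alternatives, 5 called Klf9, 2 called Me1 and 1 called Gpd2. Ucp1 had 699 and 1427 FPKM at 22 °C and 6462 and 5371 at 4 °C. Its log2 fold change of 2.56 had an adjusted p of 0.0646 (limma), and 5 of 17 alternatives called it. Thrsp, a regulator of lipid synthesis, had 398 and 645 FPKM at 22 °C and 392 and 340 at 4 °C, and was the 1 gene lower in both cold libraries.

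Under HFD 5 of the 9 targets were lower in both libraries, as were 5.8% of all genes tested, and 3 were higher in both, as were 39.9%. Ucp1 overlapped, with 3519 and 2300 FPKM in NCD and 2026 and 2976 in HFD (log2 fold change −0.21, adjusted p 0.930, limma). The 3 higher ones were Cpt1a (log2 fold change 1.20), Hr (0.76) and Klf9 (0.75), with adjusted p from 0.1798 to 0.474 (limma), named after their values were seen. The lipogenic targets were the lowest of the list. Fasn (fatty acid synthase) had 377 and 634 FPKM in NCD and 56.1 and 35.3 in HFD, with a log2 fold change of −3.43 (adjusted p 0.120, SE 0.57, limma). Acaca (acetyl-CoA carboxylase) had 165 and 142 FPKM in NCD and 35.3 and 33.4 in HFD, with a log2 fold change of −2.12 (adjusted p 0.151, SE 0.46). Thrsp had 315 and 151 FPKM in NCD and 85.7 and 104.6 in HFD, with a log2 fold change of −1.20 (adjusted p 0.406, SE 0.58, limma). The Thrsp value was −0.67 without NCD replicate 6, −1.72 without NCD replicate 8 and −2.05 with the muscle marker score as a covariate. Both HFD libraries were lower for these 3 genes, and 5, 5 and 1 of 17 alternatives called them. Me1 (−1.11) and Gpd2 (−0.52) were also lower in both HFD libraries (adjusted p 0.354 and 0.669, limma).

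Dio2 protein is short-lived and is marked for degradation by the ubiquitin ligases encoded by Wsb1 and March6, while the deubiquitinases Usp20 and Usp33 rescue it. Usp33 had 13.9 and 17.6 FPKM at 22 °C and 37.5 and 29.7 at 4 °C. Both cold libraries were higher, but the log2 fold change of 1.05 (SE 0.23) was not called (adjusted p 0.0794, limma). With library type as a covariate, Usp33 was called (adjusted p 0.0388, and 0.0159 with all 8 libraries, limma). Wsb1, March6 and Usp20 overlapped between 22 °C and 4 °C, with ranges of 2.98 to 3.98, 11.5 to 15.9 and 1.61 to 2.68 FPKM. Among the 33 promoter windows found for the whole pathway list, TGACGTCA was present in 1, that of Wsb1.

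Selenoprotein synthesis factors, which the cell needs to read the TGA codons shown above, gave no call among 6 genes in either comparison. Sephs2, which makes the selenium donor, was the most abundant, with 77.8 and 83.7 FPKM at 22 °C and 117.8 and 98.1 at 4 °C. Secisbp2, which binds the selenocysteine insertion element, had 3.23 and 3.54 FPKM at 22 °C and 5.44 and 4.54 at 4 °C. Both were higher in both cold libraries (adjusted p 0.345 and 0.216, limma). Pstk and Trnau1ap overlapped, with ranges of 8.76 to 15.1 and 6.99 to 10.4 FPKM.

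**Figure D3:**
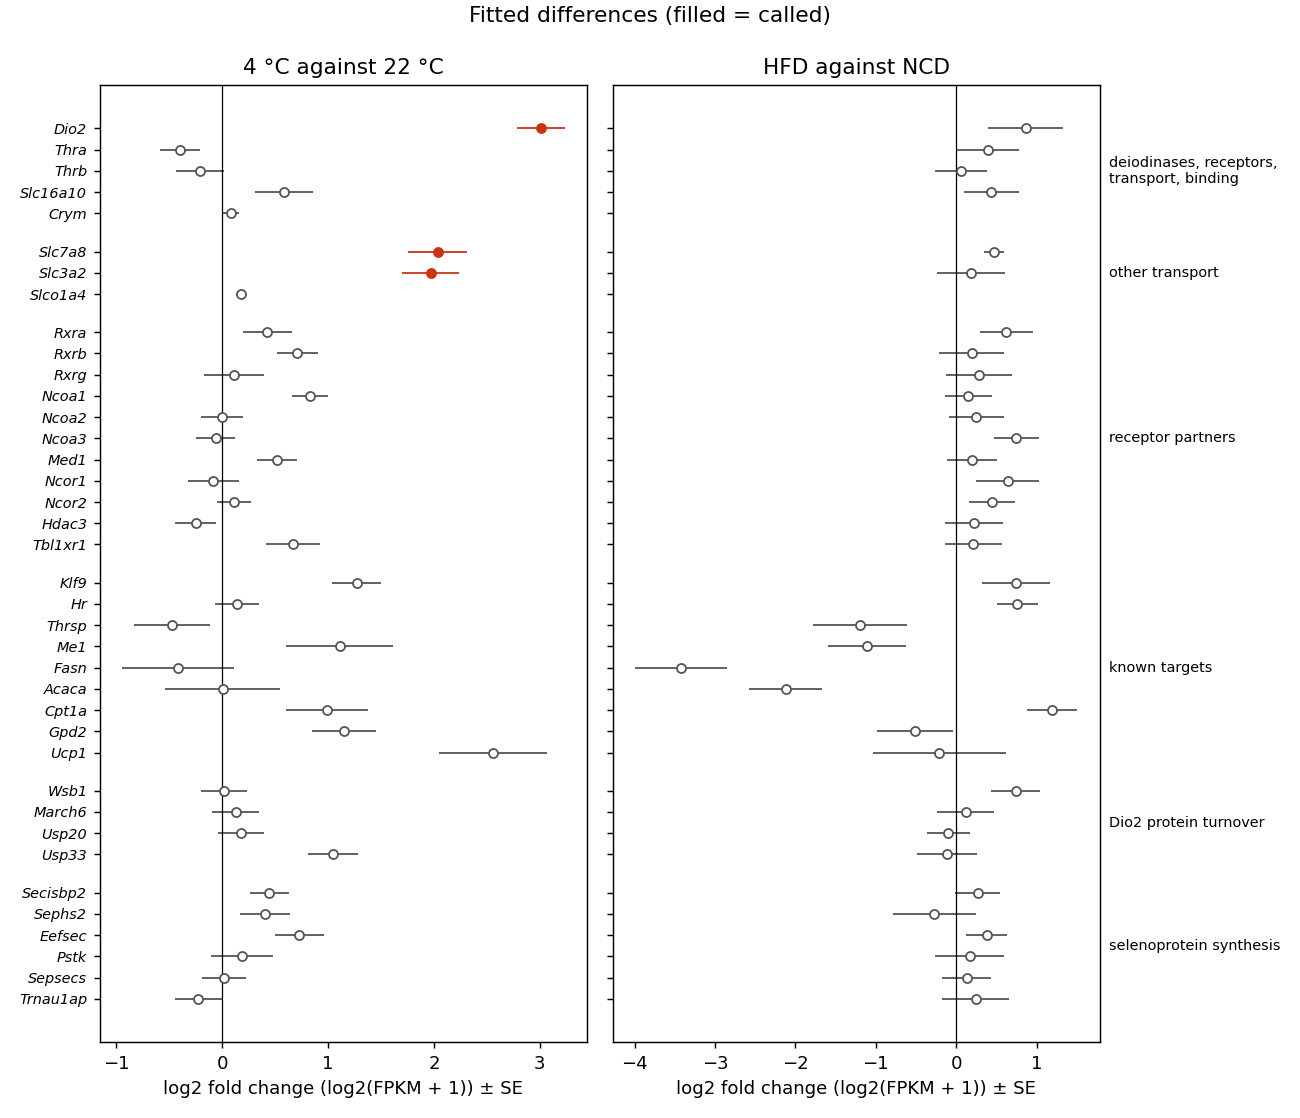
Fitted log2 fold changes on the log2(FPKM + 1) scale with their SE (limma) for members and pathway genes that passed the filter, cold on the left and diet on the right; filled red points were called. In the cold the called genes are Dio2 (3.01), Slc7a8 (2.03) and Slc3a2 (1.97), and under HFD no point is filled.

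Reads of overlapping genes can be shared where counting ignores strand, and whether it was used is not given in the sources used here. Gm26512, a long non-coding gene on the opposite strand, shares 238 bases with Dio2 and spans its RefSeq promoter window. It had 0.248 and 0.232 FPKM at 22 °C and 0.0464 and 0.0759 at 4 °C, lower in both cold libraries where Dio2 was higher, and was not called (adjusted p 0.0798, limma). Nr1d1, a circadian repressor encoded opposite the 3′ end of Thra, shares 1075 bases with it. Nr1d1 had 11.8 and 15.5 FPKM at 22 °C, 6.55 and 14.9 at 4 °C, 3.68 and 7.11 in NCD and 13.7 and 7.61 in HFD, which overlapped in the cold comparison but not under HFD (adjusted p 0.412, limma). Small RNA genes lie within Thrb (Gm24140, 0.128 to 0.506 FPKM) and Slc16a10 (Gm25613, listed at 0 in 5 libraries).

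**Figure D4:**
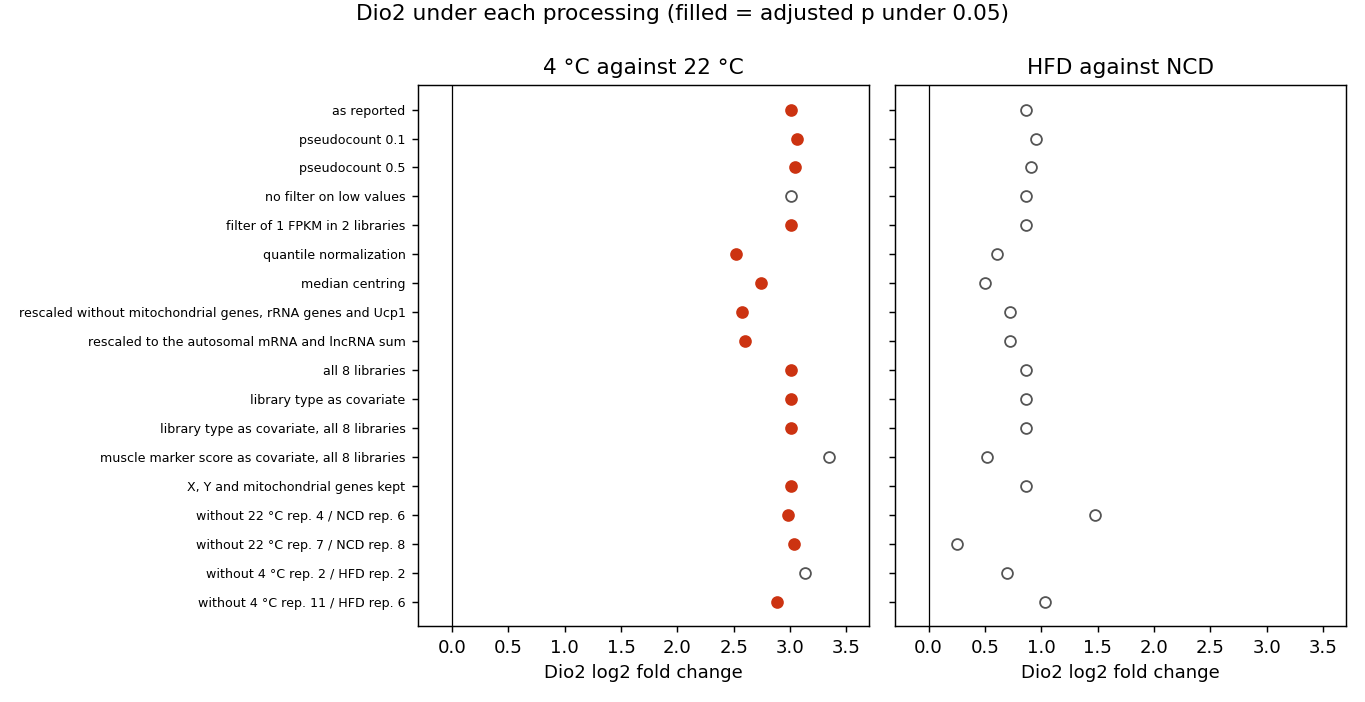
Dio2 log2 fold change (limma) in both comparisons as reported and under each alternative; filled red points have an adjusted p under 0.05. Cold values lie between 2.52 and 3.34 and diet values between 0.25 and 1.48, with no filled point for the diet.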

How the data were processed

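BAT RNA was ribosome-depleted, made into directional libraries and sequenced as paired ends. The authors mapped reads to GRCm38 with Tophat2 and estimated expression of Ensembl genes by Cufflinks (the submitters' processing notes list TopHat2 2.0.10 and Cufflinks 2.2.1). The deposited values are FPKM, 1 per gene and library, with no pooling of replicates. Sequencing depth is not stated, and 97.7% to 98.6% of low values were whole multiples of 1 fragment within 0.1 fragment. These figures cover counting error only, since no molecular identifiers separate independent molecules from PCR copies.

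Here log2(FPKM + 1) of autosomal genes with at least 0.1 FPKM in 2 of the 4 libraries of a comparison was fitted with limma 3.58.1 in R 4.3.3 (eBayes with trend, no covariate, two-sided, Benjamini-Hochberg over all genes tested), after testing on simulated data. A pseudocount of 1 understates fold changes of low genes. With 2 against 2 no exact permutation test of a single gene could reach significance. Alternatives changed the pseudocount, filter, scaling, covariates and libraries. Promoters came from RefSeq and gene models from GENCODE. Members, lists and tests were chosen with earlier results of these data known. Named pathway genes were those called and up to 4 per list by mean FPKM, apart from targets named after their values were seen. A gene of the lists is not reported here.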

Additional observations from a re-analysis of the deposited data

How the results depend on the processing

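No paired analysis was possible because 22 °C and 4 °C share no replicate numbers and NCD and HFD share only number 6. Dio2 kept its cold direction in all 17 alternatives. It was no longer past the threshold with no filter on low values (log2 fold change 3.01, adjusted p 0.130), with the muscle marker score as a covariate (3.34) and without 4 °C replicate 2, and leaving out single libraries gave 2.89 to 3.14. Within the satellite-high and satellite-low libraries it was 3.16 and 2.86. Between 0 and 1 members were called in the cold, 0 in those 3 fits. No member was called under HFD in any alternative.

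The number of all genes called moved more. In the cold 252 genes were called, against 475 and 435 with pseudocounts of 0.1 and 0.5, 0 with no filter (4689 at an unadjusted p under 0.05), 529 with a filter of 1 FPKM, 750 with medians centred, 489 with quantiles normalized, 585 on a sum of mRNA and lncRNA, 536 on a sum that leaves out rRNA, mitochondrial genes and Ucp1, 439 with all 8 libraries, 859 with library type as covariate (869 with all 8 libraries), 0 with the muscle marker score, 920 with X, Y and mitochondrial genes, and 1 to 766 with single libraries left out, 1 being without 4 °C replicate 2. Under HFD 12 were called, against 0 with no filter (2490 unadjusted), quantile normalization (2126), either rescaling (2303 and 2338) or X, Y and mitochondrial genes kept (2533), 24 with the stricter filter, 43 after centring, 75 with all 8 libraries, 744 and 439 with library type, 1 with the muscle marker score, and 99 to 727 without single libraries. Other pathway genes called in the cold numbered 0 to 6, and 0 to 5 under HFD. The cause was not tested.

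Reversals were limited to values not called. In the cold, Crym was −0.18 after median centring, −0.0255 with the muscle marker score and −1.15e-05 to 0.167 without single libraries (the lowest without 4 °C replicate 2), and Thrb was 0.30 with that score. Under HFD, Thrb was −0.31 after quantile normalization, −0.30 after centring, −0.0846 and −0.0810 after the rescalings, −0.46 with the score and −0.19 to 0.31 without single libraries (−0.07 without NCD replicate 8), and Slc16a10 was −0.0921 with the score. Depth limits Dio1, Dio3 and Crym.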
